A study of Mus musculus with 2 samples.

Results

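Nuclear genes of the mitochondrial protein import machinery were examined in total RNA of mouse gastrocnemius, the large calf muscle. The 25 genes were taken by name: every gene whose symbol is Timm or Tomm followed by a digit and that has at least 1 protein-coding transcript, out of 55536 annotated genes, of which 22015 are nuclear protein-coding. They comprise 9 genes of the TOM complex, 6 of TIM23, 3 of TIM22, 6 small Tims and Tomm34. The choice used names and transcript classes, not expression values. The antisense gene Tomm6os matched by name but has no coding transcript and was left out.

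The muscle came from 2 male B6CASTF1/J mice aged 8 to 10 months, F1 hybrids of the C57BL/6J and CAST/EiJ strains. No treatment, knockout or second genotype is named, so the samples form 1 group with 1 library for each animal. The labels number the libraries as biological replicates 1 and 2 and the animals separately, under 1 shared donor identifier. Each library was made from 300 ng of RNA with spike-in RNA added. The design allows levels to be compared between genes and the animals to be set side by side, with no test between conditions.

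Nearly all mitochondrial proteins are made in the cytosol and must cross the mitochondrial membranes. TOM, the translocase of the outer membrane, receives them through receptor subunits and passes them through the Tomm40 channel. TIM23 then takes proteins with a cleavable N-terminal presequence into the matrix or inner membrane, and TIM22 inserts multispanning carrier proteins. The small Tims are chaperones that escort hydrophobic precursors across the intermembrane space. Skeletal muscle is rich in mitochondria and depends on this supply.

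Estimated counts over all genes were 36792619 for replicate 1 and 37752252 for replicate 2. The 3 counts that a reading of 0 still allows then equal 0.0815 and 0.0795 CPM (counts scaled to library size), counting error only. Muscle fibre markers were abundant: Ckm, Acta1, Myh4, Tnnt3 and Atp2a1 summed to 70838 TPM in replicate 1 and 75365 TPM in replicate 2, where TPM is transcript abundance per length, scaled to a fixed library total. Markers of 8 other cell types that muscle tissue holds were lower. Their largest sums were 160.0 and 181 TPM for erythroid cells (Hbb-bs and Hba-a1), and 97.0 and 99.6 TPM for fibroblasts (Dcn, Pdgfra and Col1a1). Sums for smooth muscle were 26.6 and 38.1 TPM, and for adipocytes 13.8 and 22.6 TPM. The liver markers Alb and Apoa1 summed to 0.04 and 0 TPM. In bulk tissue, fewer cells of a type and less RNA per cell cannot be told apart.

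Of the 25 genes, 23 had counts in both animals. The median gene held 21.2 TPM in replicate 1 and 19.96 TPM in replicate 2, against 0.54 and 0.57 TPM for all 22015 nuclear protein-coding genes and 8.26 and 8.01 TPM for the 9815 of them at 1 TPM or more in both animals. A level of 10 TPM in both animals was reached by 20 of the 25 genes, against 18.7% of nuclear protein-coding genes. The summed level of the 25 genes was 746 TPM in replicate 1 and 745 TPM in replicate 2. Median levels were 25.6 ± 0.332 TPM for TOM, 22.0 ± 1.76 TPM for TIM23, 20.98 ± 0.148 TPM for TIM22 and 14.1 ± 2.56 TPM for the small Tims (SD, n = 2 animals). These medians include the genes without counts, Tomm20l in TOM and Timm8a2 in the small Tims. Without them the medians were 26.6 TPM for TOM and 18.7 TPM for the small Tims. The 94 respiratory chain genes, which include assembly factors with the same name stems, had a median of 199.6 ± 3.99 TPM, and the 78 mitochondrial ribosome genes one of 24.1 ± 0.0566 TPM.

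**Figure D1:**
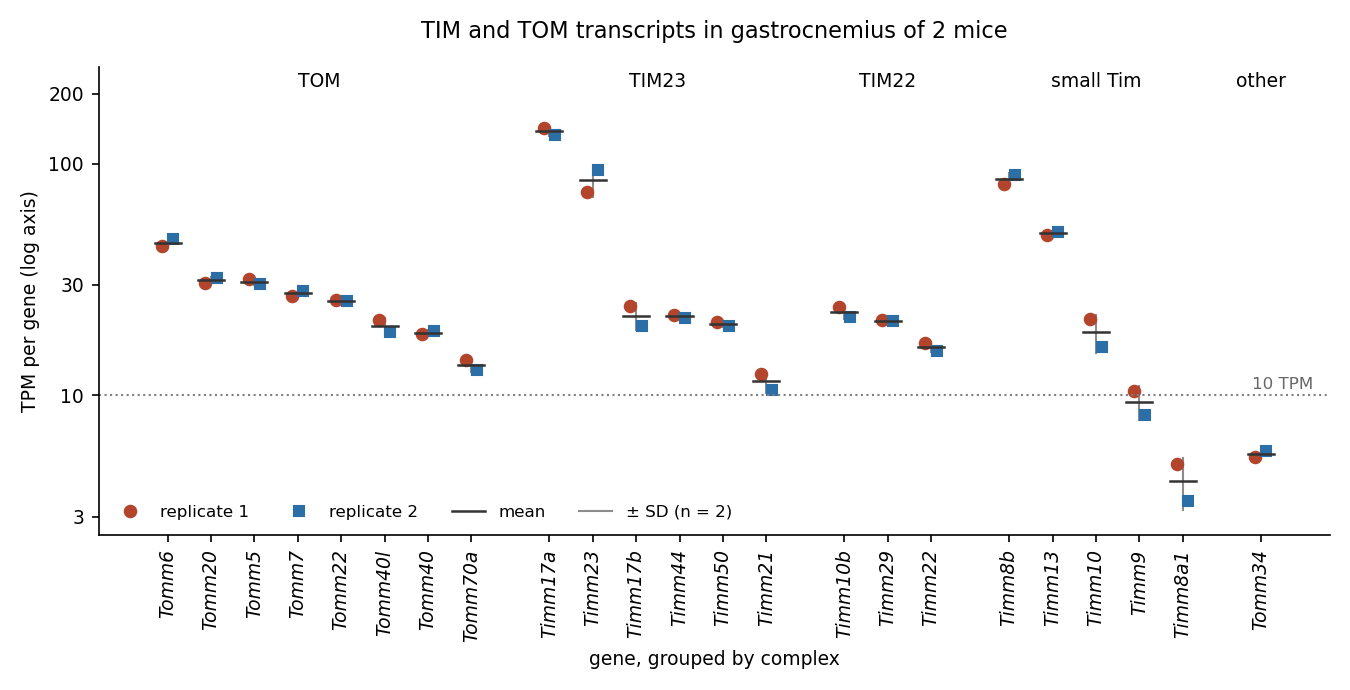
TPM per gene (log axis) of the 23 genes with counts, grouped by complex, with replicate 1 as circles left of replicate 2 as squares, the mean as a bar and the SD as a thin line. Timm17a, Timm8b and Timm23 stand highest, most other genes lie between 10 and 50 TPM, and Timm8a2 and Tomm20l, listed at 0 in both animals, are not drawn.

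The receptors of the outer membrane were expressed at moderate levels. Tomm20 (ENSMUSG00000093904.2, chromosome 8, 126930667 to 126945844 in mm10), which recognises presequences, held 30.5 and 32.2 TPM in replicates 1 and 2. Tomm22, the central receptor that ties the complex together, held 25.9 and 25.4 TPM. Tomm70a, the receptor for carrier precursors delivered by chaperones, was the lowest detected TOM gene at 14.3 and 12.9 TPM. Tomm20 lay 1.22-fold above Tomm22, and Tomm70a lay at 0.434 of Tomm20. Both ratios depend on a Tomm20 transcript of 458 bases, with 22.3 and 23.8 TPM from 201 and 243 counts. The longer Tomm20-201 held 8.17 and 8.39 TPM from 988 and 1149 counts.

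The channel has a pair of paralogous genes in mammals. Tomm40 held 18.3 and 18.9 TPM, and Tomm40l, which encodes a related channel protein, held 21.04 and 18.8 TPM. Their coding sequences matched at 646 of 923 aligned bases, or 70.0%, and no 31-base word of Tomm40l occurred in another gene, so reads of the pair can be separated. The log2 ratio of Tomm40 to Tomm40l was -0.20 in replicate 1 and 0.01 in replicate 2, so the animals differed in its sign. On transcripts with a complete coding sequence alone, Tomm40l held 8.19 and 8.97 TPM and Tomm40 17.7 and 18.4 TPM, a log2 ratio of 1.07. Most of the rest of Tomm40l lay on incomplete coding transcripts and on a transcript annotated for nonsense-mediated decay, the RNA surveillance pathway.

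The 3 small subunits, which support the assembly and stability of the channel, stood above it in TPM. Tomm6 held 43.9 and 47.1 TPM, Tomm5 31.8 and 30.2 TPM, and Tomm7 27.0 and 28.3 TPM. All 3 exceeded Tomm40 in each animal. Tomm7 was lower in the second quantification, at 16.3 and 18.3 TPM, where it held 485 and 634 counts against 696 and 827 in the gene table. Tomm6 shares 71.8% of its words with Gm21981, a readthrough gene on the same strand that held 10.7 and 23.7 counts, so its counts rest on how shared reads were divided. Tomm6os and Usp49 overlap Tomm6 on the opposite strand. The strand setting of the counting is not given in the sources used here, so reads of genes on opposite strands may be mixed.

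TIM23 held the most abundant gene of the set, Timm17a, and its channel gene Timm23, most of whose sequence is shared with another gene. Timm17a (ENSMUSG00000062580.9, chromosome 1, 135295213 to 135313778), a core subunit next to the channel, held 143 and 133 TPM and ranked 375 by mean TPM among nuclear protein-coding genes. Its paralog Timm17b on chromosome X held 24.3 and 19.96 TPM. The log2 ratio of Timm17a to Timm17b was 2.64 ± 0.12, or 6.24-fold, although their coding sequences differ at 162 of 513 aligned bases and over 90% of the words of each occur in no other gene.

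Most of the Timm17a level came from short annotated transcripts. The full-length Timm17a-201 (7280 bases) took 1323 and 1396 counts, 47.8% of the gene's counts in each animal, but 7.32 and 6.81 TPM, or 5.12% of its TPM in each. Timm17a-204, a retained intron transcript of 565 bases, took 905 and 963 counts and 77.2 and 72.5 TPM. Timm17a-203, a coding transcript of 468 bases that is incomplete in the annotation, took 540 and 563 counts and 58.3 and 53.6 TPM. The split was alike in both animals. Because TPM is per length, 100 counts were worth 0.553 TPM on Timm17a-201 and 8.54 TPM on Timm17a-204 in replicate 1.

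**Figure D2:**
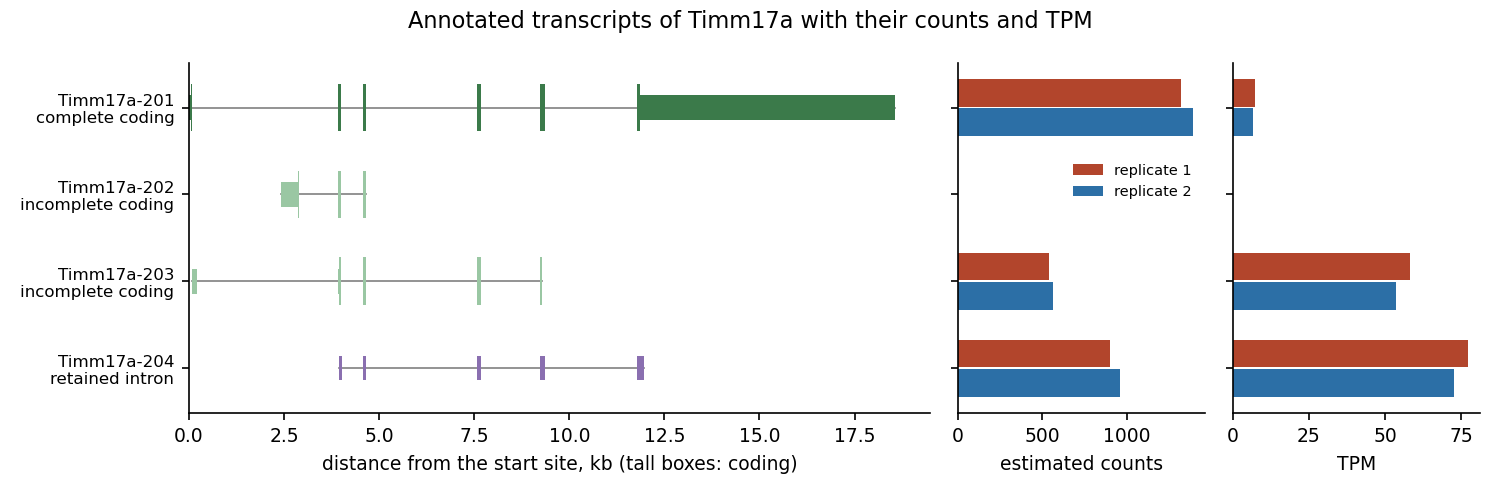
Exons of the 4 annotated Timm17a transcripts by distance from the start site in kb (left, tall boxes coding), with estimated counts (middle) and TPM (right) for replicate 1 above replicate 2. Timm17a-201 holds the most counts, 1323 and 1396, and under 10 TPM, while Timm17a-204 and Timm17a-203 hold over 50 TPM each.

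Timm17a-204 is nearly contained in Timm17a-201: 561 of its 565 bases lie in exons of the longer transcript. The remaining 4 bases follow the second exon of Timm17a-201 at the splice junction, and 33 of its 535 different 31-base words are not in Timm17a-201. The stretch around that junction is shown for both transcripts because these bases are what sets them apart (GENCODE M21, minus strand of chromosome 1, span chr1:135309169-135309800 including the intron between the exons). Capitals mark the 4 bases found only in Timm17a-204.
Timm17a-204: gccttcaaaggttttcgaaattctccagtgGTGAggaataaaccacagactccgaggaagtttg
Timm17a-201: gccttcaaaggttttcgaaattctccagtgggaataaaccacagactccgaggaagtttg
Of the 468 bases of Timm17a-203, 331 lie in exons of Timm17a-201. On complete coding transcripts alone Timm17a held 7.32 and 6.81 TPM and Timm17b 5.13 and 5.06 TPM, a log2 ratio of 0.46 in place of 2.64.

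Timm23 (ENSMUSG00000013701.13, chromosome 14, 32180162 to 32201898) encodes the channel subunit that names the complex, and held 75.6 and 93.7 TPM from 2019 and 2838 counts. Only 36.5% of its words occur in no other gene, and 57.7% occur in Gm10273 (ENSMUSG00000069622.4, chromosome 10, 59395632 to 59396757), annotated as a protein-coding gene of 1 exon. The coding sequences of both, 627 bases each, were identical at all 627 positions. Coding bases 47 to 166 are shown for each gene, counted from the first base of the start codon. They cross the first exon junction within the Timm23 coding sequence, whose flanking bases are in capitals, while Gm10273 reads through the same bases with no junction (GENCODE M21, mm10).
Timm23, chr14:32193947-32201702 with the introns between, minus strand: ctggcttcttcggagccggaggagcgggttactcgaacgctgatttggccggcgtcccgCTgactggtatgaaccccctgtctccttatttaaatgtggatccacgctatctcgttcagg
Gm10273, chr10:59395801-59395920, plus strand: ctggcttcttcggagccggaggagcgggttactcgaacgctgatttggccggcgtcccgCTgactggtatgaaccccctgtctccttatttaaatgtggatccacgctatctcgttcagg
In the reference, this stretch holds no difference by which reads of either gene could be told apart. Gm10273 held 2099 and 2025 counts in the gene table.

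The 2 quantifications divided these reads differently. Timm23 took 49.0% of the summed counts of both genes in replicate 1 and 58.4% in replicate 2 in the gene table, but 41.3% and 39.8% in the second quantification. The sums changed little, at 4118 and 4864 counts in the gene table and 4215 and 4890 in the second quantification. Timm23 itself held 56.8 and 54.4 TPM in the second quantification, below its gene table level in both animals. With Gm10273 added, the pair held 157 and 163 TPM in the gene table, above Timm17a in both animals, where Timm23 alone lay below it. In the second quantification the order turned: the pair held 139.7 and 139.5 TPM, below the 157 and 142 TPM of Timm17a in both animals.

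**Figure D3:**
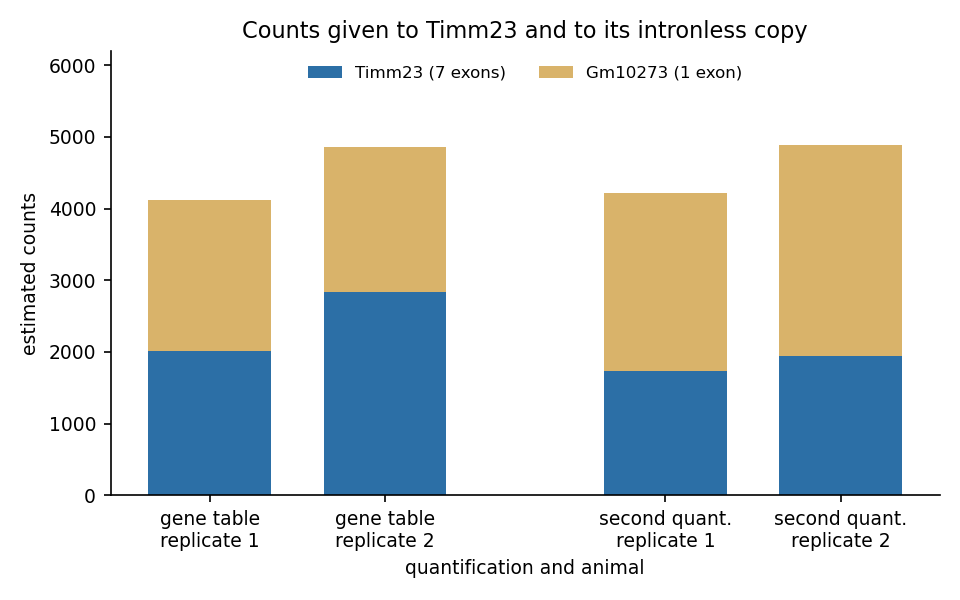
Estimated counts of Timm23 (lower part) and Gm10273 (upper part) for replicate 1 left of replicate 2, in the gene table and in the second quantification. The summed bars reach 4118 and 4864 counts in the gene table and 4215 and 4890 in the second quantification, while the Timm23 part of replicate 2 is 2838 counts in one and 1944 in the other.

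Of the other TIM23 genes, Timm44 and Timm50 lay close together in the gene table, and Timm21 lay lower. Timm44, which anchors the import motor on the matrix side, held 22.3 and 21.6 TPM, and Timm50, the presequence receptor of the complex, 20.6 and 19.95 TPM. Timm21, which contacts TOM and the respiratory chain complexes, held 12.4 and 10.6 TPM. Timm23 exceeded Timm50 by 4.13-fold (log2 ratio 2.05 ± 0.25) with the gene table's split of shared reads. The fold was 1.99 in the second quantification, and with Gm10273 added it was 7.84 in the gene table and 4.99 in the second quantification. Only 2.98 and 1.95 TPM of Timm21 lay on its single coding transcript, and retained intron and other noncoding transcripts held the rest. By counts, that coding transcript, Timm21-201 of 2418 bases, held 54.2% and 44.4% of the gene. In the second quantification Timm50 was higher, at 30.97 and 25.1 TPM, with 42.2% and 50.4% of it on coding transcripts, against 93.7% and 91.7% in the first transcript table.

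The 3 TIM22 genes spanned a narrow range. Timm22, the carrier insertion channel, held 16.8 and 15.6 TPM. Timm29, a subunit described in the human complex, held 21.1 and 20.9 TPM on its single transcript. Timm10b, the small Tim attached to the human TIM22 complex, held 24.1 and 21.8 TPM, of which 32.4% and 31.9% lay on a retained intron transcript. Timm23 stood 5.18-fold above Timm22 (log2 ratio 2.37 ± 0.29) in the gene table and 3.52-fold in the second quantification. With Gm10273 added, the fold was 9.84 and 8.81 in these tables.

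Small Tims work as ring-shaped hexamers, Timm9 with Timm10 and Timm8 with Timm13, and carry a paired cysteine pattern that holds each subunit in its hairpin fold. A search of the coding sequences for 2 pairs of cysteine codons, each pair with 3 codons between and the pairs 11 to 16 codons apart, found it in 7 of the 25 genes: the 6 small Tims and Timm10b. Each stretch from the first to the last cysteine codon is shown because it is what these genes share, with the cysteine codons in capitals (GENCODE M21, mm10). The spans of Timm10b, Timm13, Timm8a1 and Timm9 include an intron that is not printed.
Timm9, chr12:71123666-71125515, minus strand: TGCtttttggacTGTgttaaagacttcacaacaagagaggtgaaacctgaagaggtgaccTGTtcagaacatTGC
Timm10, chr2:84829803-84829880, plus strand: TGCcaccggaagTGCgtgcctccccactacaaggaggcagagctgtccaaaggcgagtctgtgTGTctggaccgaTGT
Timm10b, chr7:105640804-105641048, plus strand: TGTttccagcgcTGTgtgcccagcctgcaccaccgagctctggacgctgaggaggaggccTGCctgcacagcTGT
Timm13, chr10:80900242-80900535, minus strand: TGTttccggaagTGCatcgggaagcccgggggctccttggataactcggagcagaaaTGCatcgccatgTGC
Timm8a1, chrX:134538202-134541462, minus strand: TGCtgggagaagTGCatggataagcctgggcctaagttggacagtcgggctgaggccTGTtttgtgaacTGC
Timm8a2, chr14:122034813-122034884, plus strand: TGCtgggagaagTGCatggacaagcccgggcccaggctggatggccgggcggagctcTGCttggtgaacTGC
Timm8b, chr9:50604954-50605025, plus strand: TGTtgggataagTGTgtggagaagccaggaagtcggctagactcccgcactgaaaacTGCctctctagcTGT
The pairs lie 14 codons apart in the 3 Timm8 genes and Timm13, 15 in Timm9 and Timm10b, and 16 in Timm10.

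Levels among these related genes ranged widely. Timm8b held 81.4 and 89.7 TPM and Timm13 49.4 and 50.6 TPM. Timm8a1, the mouse counterpart of the human deafness dystonia gene, held only 5.05 and 3.51 TPM from 168 and 132 counts. Timm8b is thus the main Timm8 transcript of this muscle, with Timm8a1 at 0.0504 of its level (log2 ratio -4.31 ± 0.46). Timm8a1 shares 41.8% of its words with the processed pseudogene Gm9797, but that copy held 7.13 and 6.80 counts. The coding sequences of Timm8a1 and Timm8b match at 60.2% of aligned bases.

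Timm10 held 21.2 and 16.2 TPM and Timm9, its partner in the hexamer, 10.5 and 8.26 TPM. Timm9 lay at 0.504 of Timm10, with nearly the same log2 ratio in both animals (-1.01 and -0.97). Timm8a1 lay at 0.0861 of its partner Timm13. Timm9 was the only detected small Tim other than Timm8a1 that missed 10 TPM in an animal.

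Both genes without counts are paralogs of expressed members. Timm8a2 (ENSMUSG00000071229.3, chromosome 14, 122034674 to 122038420) and Tomm20l (ENSMUSG00000021078.5, chromosome 12, 71111428 to 71123221) had 0 counts in both animals and in both quantifications, although all of their words are unique to them. Against the 3 counts per library that a reading of 0 allows, Timm8a1 was at least 35.95-fold higher than Timm8a2 in replicate 1 and at least 28.3-fold higher in replicate 2, in counts per kilobase. By the same measure, Tomm20 was at least 137-fold higher than Tomm20l in replicate 1 and 164-fold in replicate 2, if its length is 1648 and 1617 bases. These lengths rest on how TPM was split between the Tomm20 transcripts. Most Tomm20 counts lay on Tomm20-201 of 4902 bases, and at that length the folds would be lower. Tomm20l ends within Timm9, which lies on the opposite strand and had 191 and 204 counts.

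Tomm34 encodes a cytosolic cochaperone of Hsp70 and Hsp90 and is not a subunit of the TOM complex. It held 5.43 and 5.78 TPM, below every detected TOM gene in both animals. In the order of all mean levels, the ranges of the 2 animals overlapped between neighbours for Timm8b and Timm23, for Tomm20 and Tomm5, for Timm10b, Timm17b and Timm44, and for Timm50, Tomm40l, Timm10 and Tomm40. At every other step among detected genes, both animals were higher for the upper gene.

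The classes of transcript behind these gene levels varied. The median of the 23 detected genes was 98.9% of TPM on protein-coding transcripts in replicate 1 and 98.7% in replicate 2. It was 96.9% in each for the 4120 nuclear protein-coding genes at 10 TPM or more. The sets are not alike, since the 23 include Timm8a1, Timm9 and Tomm34, which missed 10 TPM in an animal. On transcripts whose coding sequence is complete, 4 of the 20 genes at 10 TPM or more held under 50% in both animals (Timm17a, Timm17b, Timm21 and Tomm40l), against 12.7% of all genes at that level. The same 4 did in the second transcript table, against 16.1%. These shares are of TPM, which is per length, and shares of counts in the first transcript table were larger. The complete coding Timm17b-201 held 54.6% and 59.6% of its gene's counts, Timm21-201 54.2% and 44.4%, and Tomm40l-203 58.0% and 63.5%. Retained intron transcripts held 20% or more of the TPM in both animals in 4 of the 20 genes at 10 TPM or more (Timm17a, Timm17b, Timm21 and Timm10b), against 7.43% of all genes at that level. In the second transcript table it was 7 of the 20, with Timm13, Timm44 and Timm50 in addition, against 8.70% of all. By counts in the first table, Timm17a-204 held 32.7% and 32.9% of its gene, Timm17b-203 31.2% and 29.5%, and Timm10b-205 29.0% and 27.1%. Retained intron is the annotated class. Of Timm17a-204, 561 of 565 bases lie in exons of a coding transcript, of Timm17b-203 680 of 761, and of Timm10b-205 229 of 444. Of 19 detected genes with more than 1 annotated transcript, 12 had the same most abundant transcript in both animals and both tables. The same share over all genes is not given here, so this count is a description only.

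**Figure D4:**
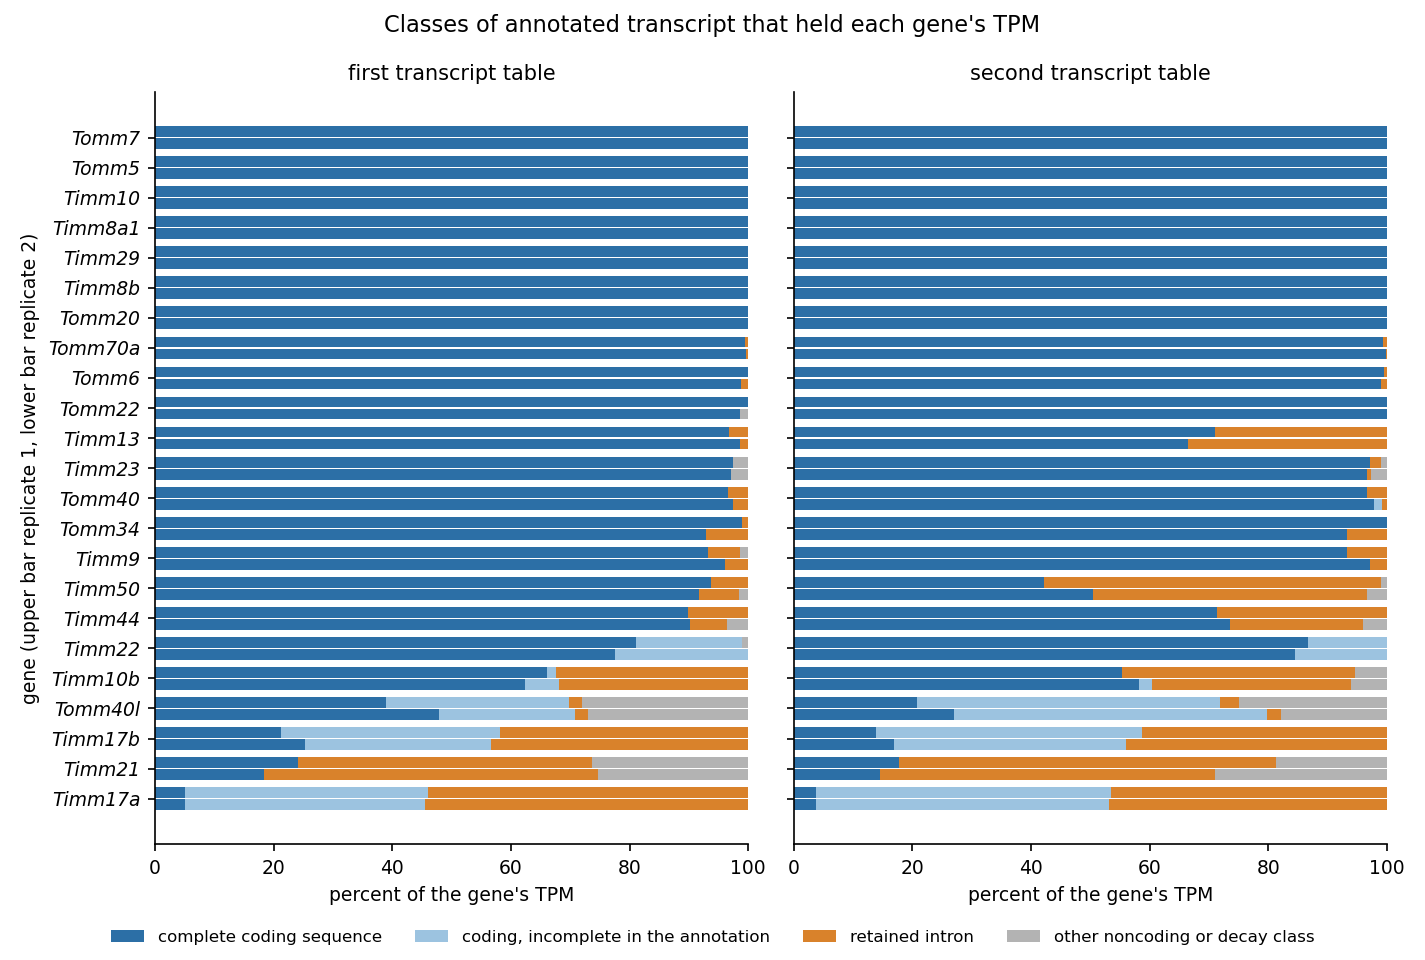
Percent of each gene's TPM on transcripts with a complete coding sequence, incomplete coding, retained intron or other classes, for 23 genes in the first (left) and second (right) transcript table, replicate 1 above replicate 2 for each gene. Timm17a, Timm21, Timm17b and Tomm40l stand out at the bottom with under 50% on complete coding transcripts in both animals and both tables, and Timm50, Timm13 and Timm44 differ between tables.

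A short transcript also carried the Tomm20 level. Tomm20-202, a coding transcript of 458 bases, held 73.2% and 73.9% of the gene's TPM from 201 and 243 counts. The longer Tomm20-201 (4902 bases) held 988 and 1149 counts, and 454 of the 458 bases of Tomm20-202 lie in its exons. A processed pseudogene of Tomm20, Gm14494, has 435 bases, as long as the Tomm20 coding sequence. It held 318 and 346 counts, or 37.7 and 36.2 TPM, above Tomm20 itself in both animals, and shares 343 of its words with Tomm20.

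Differences between the animals were small for most genes. Ratios are of counts scaled for library size, replicate 1 over replicate 2, with an exact interval at 95% that covers counting error only. Of the 23 detected genes, each averaging 100 or more counts, 1 was at least 25% higher in replicate 1 and 1 at least 25% higher in replicate 2, against 6.79% and 6.77% of the 9516 genes at that count. The interval lay wholly above equal in 4 genes and wholly below in 2, against 18.6% and 18.0% of all genes. The median log2 ratio was 0.03, against -6.63e-05 for all genes at that count, and the median size of the log2 ratio was 0.08, against 0.12. With 1 library per animal no test of a difference was possible.

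Timm8a1 was 1.41-fold higher in replicate 1 (log2 ratio 0.49, interval 0.16 to 0.84) and had 186 and 141 counts in the second quantification, with a log2 ratio of 0.55. Timm10 followed at 0.31 (0.07 to 0.56), from 305 counts in replicate 1 and 272 in replicate 2, just under 25% higher. Timm21 had a log2 ratio of 0.30 (0.06 to 0.53) and Tomm70a one of 0.12 (0.03 to 0.20). These 4 kept an interval above equal in the second quantification. With counts scaled by library totals, only Timm8a1 of the 4 did.

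Timm23 had the lowest log2 ratio at -0.34 (-0.42 to -0.26), a 1.27-fold higher level in replicate 2. In the second quantification it was -0.003 (-0.10 to 0.09), and for the summed counts of Timm23 and Gm10273 it was -0.09 (-0.15 to -0.03). Gm10273 had a log2 ratio of 0.20 (0.11 to 0.29) in the gene table. The 2 genes with identical coding sequences thus moved in opposite directions between the animals in that table, while their sum differed by less than 25%. Timm8b had a log2 ratio of -0.17 (-0.30 to -0.04), and -0.27 (-0.41 to -0.13) in the second quantification. With counts scaled by the spike-ins, the log2 ratio of Timm8b was -0.02 (-0.15 to 0.11). In the second quantification the interval also left out equal for Timm17a, at 0.08 (0.004 to 0.15), and Tomm7, at -0.23 (-0.40 to -0.06), and Timm21 passed 25% with a log2 ratio of 0.38.

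**Figure D5:**
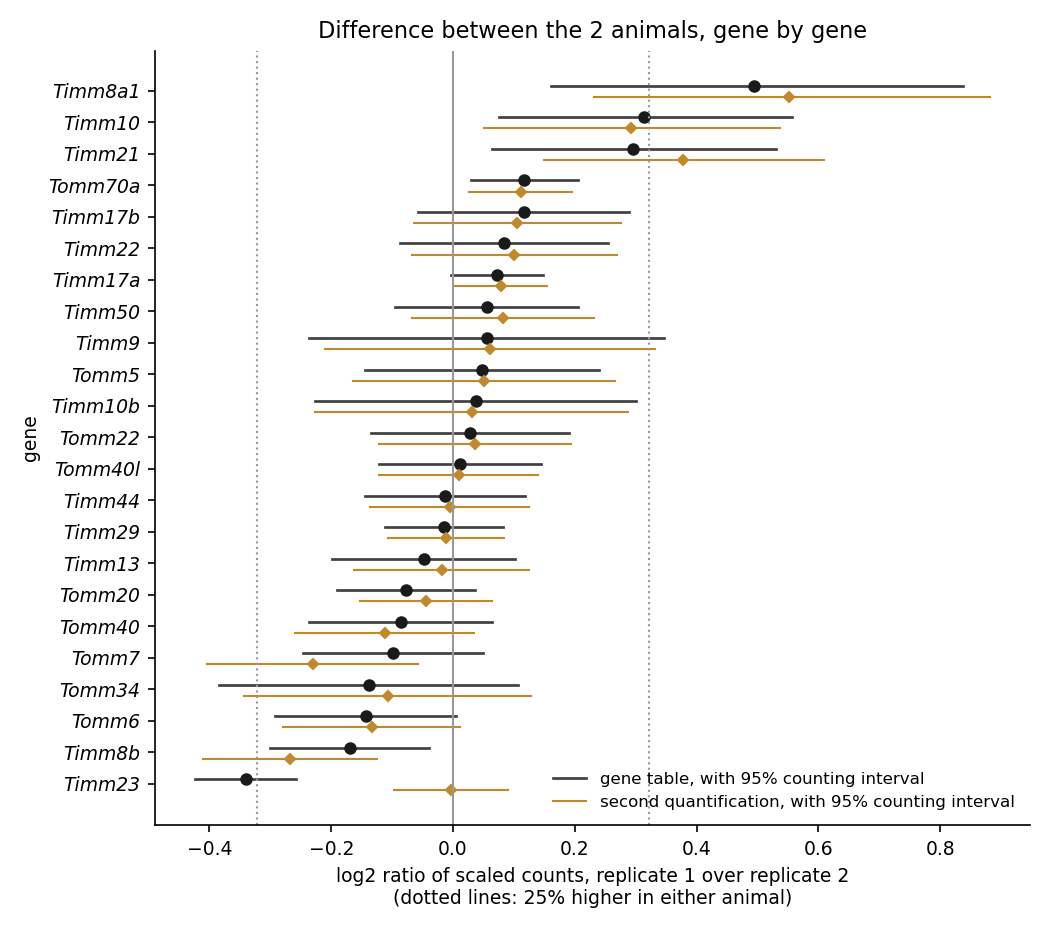
Log2 ratio of scaled counts, replicate 1 over replicate 2, for 23 genes, with exact 95% counting intervals, from the gene table (black) and the second quantification (ochre); dotted lines mark 25% higher in either animal. Timm8a1 and Timm23 lie past the lines in the gene table, and Timm23 lies near equal in the second quantification.

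Slow and fast fibre genes differed between the same animals. All 7 slow fibre genes were at least 25% higher in replicate 1, against 6.79% of the 9516 genes with 100 or more counts on average. Their median log2 ratio was 0.60. Tnni1, slow troponin I, held 124 and 71.2 TPM, the lowest level and the highest ratio of these. Myl2 was the most abundant at 339.9 and 243 TPM, and Myl3 had the lowest ratio at 0.43. All 7 fast fibre genes had intervals below equal, against 18.0% of all genes at that count, with a median of -0.16. That median depends on the scaling, since spike-in scaling shifts log2 ratios by 0.15 and scaling by total counts by -0.11. Tnni2, fast troponin I, had the lowest ratio of the 7 and held 7010 and 8010 TPM. Tnnt3 was the most abundant at 13178 and 14851 TPM, Tnnc2 the least at 4404 and 4463 TPM, and Atp2a1 had the highest ratio at -0.04. The median was 0.03 for the import genes, -0.04 for the respiratory chain and -0.01 for the mitochondrial ribosome. Of 86 respiratory chain genes with 100 or more counts on average, the interval lay above equal in 8 and below in 34. Over all 9516 genes at that count, the shares were 18.6% above and 18.0% below, and intervals narrow as a gene's counts rise. Cox8a, a cytochrome oxidase subunit, had the highest log2 ratio of the respiratory chain list at 0.36 and the assembly factor gene Ndufaf6 the lowest at -0.33. Atp5b, an ATP synthase subunit, was the most abundant of the list at 1437 and 1509 TPM and Atp5s the least at 7.40 and 7.02 TPM. Of 77 such ribosome genes the interval lay above in 6 and below in 4, and log2 ratios ran from Mrps35 at 0.24 to Mrps16 at -0.32. Mrps21 was the most abundant at 127 and 124 TPM and Mrpl39 the least at 5.53 and 5.72 TPM. Whether the fibre difference, or the differences in smooth muscle and adipocyte marker sums, has a part in any single import gene's ratio was not tested.

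Partner genes outside the Timm and Tomm names, from a list of 21, had a median of 17.7 and 17.8 TPM. Of the motor that pulls precursors through TIM23, the mitochondrial Hsp70 gene Hspa9 was the most abundant partner at 129 and 119.8 TPM, and Dnajc15 and Dnajc19, membrane-bound J proteins, held 69.4 and 63.0 TPM and 47.8 and 47.5 TPM. Samm50, the core of the sorting machinery for barrel proteins, held 84.8 and 72.6 TPM. Pmpca and Pmpcb, subunits of the peptidase that removes presequences, held 55.4 and 51.8 TPM and 47.1 and 42.5 TPM. Chchd4 and Gfer, which form the disulfides of the small Tims, held 4.72 and 4.31 TPM and 15.8 and 19.3 TPM. Both lay below Timm8b and Timm13, and Chchd4 also lay below Timm9 and Timm10 in both animals. Gfer lay above Timm9 and Timm8a1 in both animals, and above Timm10 in replicate 2 only. Chchd4 lay below Timm8a1 in replicate 1 and above it in replicate 2. Mtx3, a metaxin, was the least abundant at 0.99 and 1.1 TPM and the only 1 of the 21 at least 25% higher in an animal, with a log2 ratio of -0.42 (-0.79 to -0.05). The highest ratio was that of Mtx2, a metaxin too, at 0.22 (0.01 to 0.42). Intervals lay above equal for 3 of the 21 partners and below for 4, against 18.6% and 18.0% of all genes with 100 or more counts on average. At that count, 6.79% of all genes were at least 25% higher in replicate 1 and 6.77% in replicate 2. The partner counts are a description only.

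Promoter sequences from RefSeq (GRCm38.p6, 250 bases before to 50 after each start) matched 22 of the 25 genes. The letters CCGGAAG, a core of sites bound by ETS factors such as GABPA, a known regulator of nuclear genes for mitochondria, were found on either strand in 9 of the 22 genes, and in 10 of their 24 promoters, or 41.7%. They were found in 8.86% of all 32851 promoters, and in 11.4% of those within the GC range of the 24. The letters CGCANGCG, a core of NRF1 sites, were found in 5 of the 22 genes, in 20.8% of their promoters against 8.21% of all and 9.37% of those within the GC range. TATAAA, the TATA box, was found in 2 genes and 8.33% of their promoters, against 13.6% of all and 8.71% within the GC range. The ERR core AAGGTCA was found in 12.5% of their promoters, against 4.72% of all and 4.62% within the GC range. The YY1 core AAGATGGC was found in 4.17%, against 2.75% and 3.26%, and the GC box GGGCGG in 45.8%, against 35.7% and 40.7%. Upstream windows of 3 genes are shown with the 7 letters in capitals, since they hold the same match at mean levels of 84.6 TPM (Timm23), 25.6 TPM (Tomm22) and 0 TPM (Timm8a2).
Timm23, chr14:32201902-32201968, minus strand, match 47 bases before the start: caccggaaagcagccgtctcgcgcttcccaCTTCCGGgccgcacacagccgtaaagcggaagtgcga
Tomm22, chr15:79670794-79670860, plus strand, match 44 bases before the start: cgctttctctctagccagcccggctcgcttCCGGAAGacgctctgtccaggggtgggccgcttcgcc
Timm8a2, chr14:122034590-122034656, plus strand, match 54 bases before the start: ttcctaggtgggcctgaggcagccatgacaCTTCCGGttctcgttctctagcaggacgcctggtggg
A match of letters is a description and not a bound site, and Timm8a2 had no counts with 2 such matches.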

How the data were processed

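The authors' deposited gene table gives expected counts, that is estimated reads per gene that are not normalized, and TPM whose total takes in the spike-in entries. The README says that the first transcript table was made from transcriptome alignments and, per the file headers, it has the columns RSEM writes, including the percent of a gene that each transcript holds. The second, with estimated counts and TPM in the columns kallisto writes, was made from reads and an index. All used mm10 with GENCODE M21. The aligner, versions and strand setting are not given in the sources used here. The tables hold 1 value per gene or transcript and animal, so alleles of the parent strains were not separated, and mm10 carries the sequence of C57BL/6J only.

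The 25 genes were taken by name, and all are described. Of other lists, the text names the most and least abundant genes and those with the highest and lowest ratio. Other partner genes, Gm10273, Gm14494, Gm9797 and Gm21981 were added after their values were seen. The members and lists were chosen with earlier results of these data known. Entries that are not genes, at 0.257% and 0.308% of counts, were left out. Counts were rounded and scaled by TMM (edgeR 4.0.16, R 4.3.3; factors 0.949 and 1.05), with a prior of 1 count. Intervals are exact Clopper-Pearson at 95% (scipy 1.17.1). Log2 ratios between genes used an added 0.1 TPM. Word uniqueness is the percent of a gene's 31-base transcript words that no other gene holds on that strand. Alignments used Biopython 1.88, and figures matplotlib 3.10.9. Differences between the libraries exceeded counting noise (a chi-square of 61.0 per degree of freedom) and were kept as 2 replicates. The ratio step was tested on simulated data with counting noise only, so that test does not cover variation between animals or shared reads. Alternatives were scalings by size factors of DESeq2 1.42.0, by total counts or by spike-ins, the second quantification, other minimums, folds, priors and pseudocounts, and each animal left out. Complete coding transcripts alone and the sum with Gm10273 were chosen after seeing the data.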

Additional observations from a re-analysis of the deposited data

How the results depend on the processing

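No paired analysis was possible because the samples form 1 group. The second quantification moved the medians to 22.4 TPM for TOM, 26.6 TPM for TIM23 and 16.7 TPM for TIM22, and the share on protein-coding transcripts to 99.2%. TPM counted over nuclear protein-coding genes alone gave medians of 47.4 TPM for the 25 genes, 59.0 TPM for TOM, 50.7 TPM for TIM23, 48.3 TPM for TIM22 and 32.4 TPM for small Tims. A mean of 10 or more counts gave 21.6 TPM for all, 26.6 TPM for TOM and 18.7 TPM for small Tims. Genes with 90% or more unique words gave 19.98 TPM for TOM, 18.6 TPM for TIM22 and 18.7 TPM for small Tims. Complete coding transcripts alone gave 16.97 TPM for all, 12.9 TPM for TIM23 and 14.8 TPM for TIM22. A minimum of 20 TPM was reached by 12 genes, and the share of all genes at that level is not given here. On complete coding transcripts the log2 ratio of Tomm40 to Tomm40l turned to 1.07 and that of Timm23 to Timm17a to 3.52, against -0.71 with all transcripts; with Gm10273 added to Timm23 the second was 0.21 in the gene table, but -0.10 in the second quantification. Leaving out each animal gave -0.198 to 0.013 for Tomm40 to Tomm40l. Scaling by total counts shifted the median of all genes by -0.11 and gave 10 genes with an interval that left out equal, 1 above and 9 below, against 7.53% and 40.1% of all genes, and a median log2 ratio of -0.085. Spike-in scaling shifted it by 0.15 and gave 14 genes, 13 above and 1 below, against 48.0% and 5.31% of all, and a median of 0.18; 3 genes were then at least 25% higher in replicate 1, against 17.1% of all. Another scaling moves the log2 ratio of every gene by nearly the same amount, so ratios relative to these shifts could hardly differ from those under TMM. With Gm10273 added to Timm23, the count of genes at least 25% apart was 1. Of all genes, 6.79% were then that much higher in replicate 1 and 6.76% in replicate 2. The count was 1 at a mean of 500 or more counts, 0 at 1.5-fold and 7 at 1.1-fold. Shares of all genes at these last settings are not given here, so the counts are a description only. Intervals rest on 132 to 2922 counts per gene and animal and leave out animal and library variation, which 2 animals cannot separate. Under 60% of the words of Timm23, Tomm6 and Timm8a1 occur in no other gene, so their levels rest on how shared reads were divided.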
